A study of Mus musculus with 12 samples.

Results

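The genes described here drive the cell cycle. They are 42 genes chosen as a fixed list by function, with earlier results of these data known. Of these, 20 act at the entry into or during S phase, 21 act in G2 and mitosis, and 1, *Cdkn1a*, encodes the cyclin-dependent kinase inhibitor p21. A probe was matched for 41 of the 42, out of 32301 genes or transcripts on the array, and *Rrm2* was not analysed here. All 41 passed the filter on dim probes (both arrays of some group well above background), and 34 were well above background on all 12 arrays. Their RNA was measured in bone marrow-derived macrophages (BMDMs), cells grown for 7 days from the marrow of 8-week-old C57BL/6 mice in medium with M-CSF, the growth factor of the macrophage lineage, which was withdrawn some hours before stimulation. WT mice were compared with KpCKO mice (*Keap1* flox/flox::*LysM*-Cre), in which Cre from the lysozyme M locus removes *Keap1*, the gene of the adaptor that marks the transcription factor Nrf2 for degradation, in myeloid cells. Cells of each genotype served without a stimulus (Con) or received LPS and IFNγ (M1) or IL-4 (M2) for 6 h. Each of the 6 groups held 2 arrays, 1 from culture 1 (male mice) and 1 from culture 2 (female mice). The 12 arrays thus came from 4 mice with 3 arrays each, and culture and sex cannot be told apart.

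A cell that divides passes from G1 into S phase, where DNA is copied, and through G2 into mitosis, where the copies are parted. Factors of the E2F family switch on many S-phase genes, and the MuvB complex with B-Myb and FOXM1 switches on the genes of G2 and mitosis. When cells leave the cycle, the same elements are bound by repressor complexes, among them DREAM, and p21 holds the cyclin-dependent kinases that would undo this. M-CSF drives the division of macrophage progenitors, and activation of macrophages by LPS or interferon γ is known to stop it. In bulk RNA, fewer cycling cells and less RNA per cycling cell cannot be told apart.

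The labels of genotype were borne out by the deleted gene. *Keap1* was lower in KpCKO than in WT within each culture and stimulus, by 1.66 on the log2 scale over the 3 conditions (SE 0.14, adjusted p = 0.000705), and its probe stayed well above background on all KpCKO arrays. *Nqo1*, a target of Nrf2, was higher in KpCKO on every pair of arrays (log2 difference 3.42, SE 0.06, adjusted p = 1.4e-06). All 9 macrophage markers with a probe were well above background on all 12 arrays. Markers of other cells were above it too, with 7 of 11 of neutrophils and their precursors, 3 of 6 of B cells, 3 of 3 of stem and early progenitor cells and 6 of 6 of stromal cells on all arrays, and their part in the results below was not tested. The arrays of the M1 groups were dimmer, with a 75th percentile of the signal between 548 and 906, against 966 to 1166 on the Con and M2 arrays, and 59.4% to 68.1% of their probes were well above background, against 66.4% to 71.5%. Each slide carried the 4 arrays of 1 stimulus, so that stimulus and slide cannot be told apart, whereas the genotypes were compared within a slide. Levels are given below as the log2 intensity minus the 75th percentile of the array, in log2 units, and apply to 1 probe. They say nothing of one gene against another. All adjusted p are from limma with the Benjamini-Hochberg method over all genes tested, with a threshold of 0.05.

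The promoters of the S-phase and the mitotic members carried different elements. In the 300 bases from 250 before to 50 after the annotated start (RefSeq, GRCm38.p6), the letters CCAAT, the core of the element bound by NF-Y, were found on either strand in 37.9% of 27025 promoters, in 11 of 17 S-phase members with a promoter entry (64.7%) and in 17 of 19 mitotic members (89.5%). The cell cycle genes homology region (CHR, letters TTTGAA), the element through which MuvB complexes bind, was found in 18.1% of all promoters, in 2 of 17 S-phase members (11.8%) and in 14 of 19 mitotic members (73.7%). A strict form of the E2F site (TTTCCCGC or TTTGGCGC) was found in 1.63% of all promoters, in 7 of 17 S-phase members (41.2%) and in 0 of 19 mitotic members. The S-phase members with this site were *Cdc6*, *Cdt1*, *Mcm3*, *Mcm5*, *Mcm6*, *Mcm7* and *Pola1*, and those with a CHR were *Mcm2* and *Cdc45*. Among the mitotic members, *Ccnb1*, *Bub1*, *Cenpe*, *Birc5* and *Nusap1* held no CHR in this window. No entry was found for *Mcm4*, *Gins1*, *Ccne2*, *Ccna2* and *Aurkb*. The motifs do not overlap one another in letters, and a match is a description of the letters, not of binding.

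The 5 promoters below show these layouts, each as 280 bases from 250 before the start to 30 after it, 5′ to 3′ on the strand of the gene, with the matches in capitals. *Mcm6* and *Mcm7* are S-phase members with E2F sites and CCAAT boxes, *Cenpa* and *Kif23* are mitotic members with a CCAAT box upstream of a CHR, and *Mki67* is a mitotic member with both elements that moved against its list under M1. CCAAT on the other strand reads ATTGG here, and the E2F site of *Mcm7* reads GCGGGAAA.
*Mcm6*, chr1:128359676-128359955, minus strand: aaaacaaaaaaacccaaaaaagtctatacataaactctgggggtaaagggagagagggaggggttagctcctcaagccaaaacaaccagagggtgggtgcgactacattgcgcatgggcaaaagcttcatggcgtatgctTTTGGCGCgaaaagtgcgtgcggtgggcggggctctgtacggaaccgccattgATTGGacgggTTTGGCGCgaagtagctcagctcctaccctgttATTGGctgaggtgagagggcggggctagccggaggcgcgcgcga
*Mcm7*, chr5:138171854-138172133, minus strand: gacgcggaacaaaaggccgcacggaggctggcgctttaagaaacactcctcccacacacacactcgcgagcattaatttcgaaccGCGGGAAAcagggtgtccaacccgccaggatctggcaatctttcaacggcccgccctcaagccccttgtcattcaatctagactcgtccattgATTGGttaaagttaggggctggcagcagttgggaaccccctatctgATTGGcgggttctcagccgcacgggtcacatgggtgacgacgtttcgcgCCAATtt
*Cenpa*, chr5:30666636-30666915, plus strand: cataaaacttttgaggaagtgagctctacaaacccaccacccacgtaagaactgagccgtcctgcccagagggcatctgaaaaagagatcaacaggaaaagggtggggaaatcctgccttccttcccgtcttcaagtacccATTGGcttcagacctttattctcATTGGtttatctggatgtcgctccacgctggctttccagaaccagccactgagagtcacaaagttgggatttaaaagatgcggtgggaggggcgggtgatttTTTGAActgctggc
*Kif23*, chr9:61946770-61947049, minus strand: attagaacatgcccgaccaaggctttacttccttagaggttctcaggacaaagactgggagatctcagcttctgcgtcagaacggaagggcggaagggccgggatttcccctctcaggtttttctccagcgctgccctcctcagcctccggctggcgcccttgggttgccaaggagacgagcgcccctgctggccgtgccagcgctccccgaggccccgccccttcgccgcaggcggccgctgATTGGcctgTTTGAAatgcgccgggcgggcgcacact
*Mki67*, chr7:135716350-135716629, minus strand: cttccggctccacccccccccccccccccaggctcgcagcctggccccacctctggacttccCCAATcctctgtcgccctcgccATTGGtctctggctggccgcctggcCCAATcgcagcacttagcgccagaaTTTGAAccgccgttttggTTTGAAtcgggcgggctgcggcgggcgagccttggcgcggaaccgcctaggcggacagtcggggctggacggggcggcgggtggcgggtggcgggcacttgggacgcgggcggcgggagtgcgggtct

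After the M1 stimulus, most cell cycle genes of WT macrophages fell and *Cdkn1a* rose. Of the 41 members, 29 were lower in M1 than in Con and 6 were higher (limma), and the other 6 did not pass the test. Over all genes tested, 28.7% were lower and 34.5% were higher, and the median log2 difference was 0.13, against −1.64 over the members. The medians of the S-phase and the mitotic members lay close to each other in WT, at −1.72 with 15 of 19 lower and at −1.64 with 14 of 21 lower. In KpCKO, 33 of the 41 members were lower and 4 higher, where 25.4% of all genes were lower and 24.8% higher, with a median of −1.75 over the members and 0.03 over all genes. The 2 lists lay further apart there, with a median of −1.58 over the S-phase members (15 lower) and −2.06 over the mitotic members (18 lower). Without *Ccna2*, *Cdk1*, *Top2a* and *Mki67*, which also act or appear outside mitosis proper, the median of the mitotic members was −1.75 in WT and −2.28 in KpCKO. Within culture 1 and culture 2 of WT, the medians were −1.68 and −1.33 for S phase and −1.76 and −1.39 for mitosis. In KpCKO they were −1.309 and −1.355 for S phase and −1.789 and −2.341 for mitosis, so that the lists lay further apart in culture 2. Quantile normalization moved the median of all genes in the WT M1 response from 0.13 to −0.08 and normexp background correction moved it to 0.40. The fall of the members exceeds either shift. Marker genes moved with the M1 stimulus as well. In WT, 7 of 9 macrophage markers were higher in M1 with a median of 0.79, and 6 of 9 in KpCKO with 0.69. Of 5 T and NK cell markers tested, 2 were higher and 1 lower in WT, and their summed level lay between −2.80 and −2.09 in Con and between 0.72 and 1.71 in M1, with *Lck* higher by 7.61. Of 5 B cell markers tested, 2 were lower and 1 higher in each genotype, and their summed level lay between −0.44 and 0.46 in Con and between −2.002 and −1.53 in M1. The part of these markers in the members' values was not tested.

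**Figure D1:**
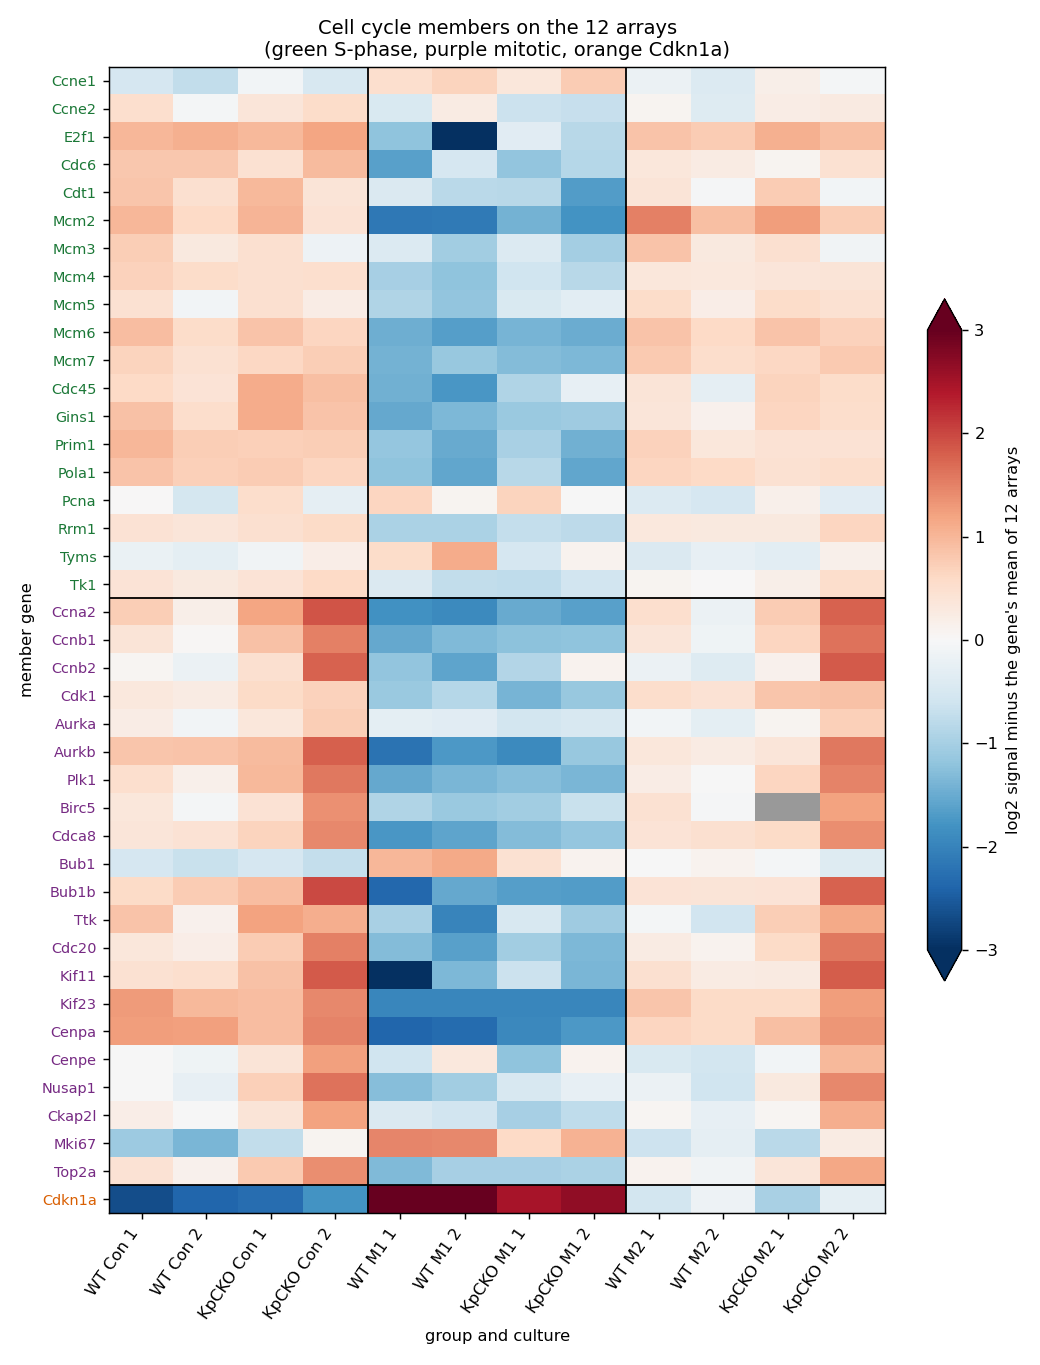
Log2 signal of each of the 41 members on each of the 12 arrays, minus the mean of that gene over the arrays (colour, in log2 units, cut at −3 and 3), with genes in rows and arrays in columns. The M1 arrays (middle block) are blue for most members, *Cdkn1a*, *Mki67*, *Bub1* and *Ccne1* are red there, and the KpCKO arrays of culture 2 are the reddest columns of the mitotic block in Con and M2. The grey cell is an outlier spot of *Birc5*.

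The factors that license origins and unwind DNA all passed the test as lower in M1. Cdc6 and Cdt1 load the Mcm2-7 helicase on origins in G1, and all 8 genes of this group were lower in M1 in both genotypes, with a median of −1.78 in WT and −1.82 in KpCKO. The largest fall in WT was that of *Mcm2* (probe A_51_P158210). Its level was 0.12 and −0.27 in WT Con and −3.01 and −2.99 in WT M1, and it was 0.14 and −0.43 in KpCKO Con and −2.30 and −2.66 in KpCKO M1. The M1 arrays were far below the Con arrays in both genotypes, with no overlap. The fall was 7.59-fold in WT (log2 difference −2.92, SE 0.16, adjusted p = 1.63e-05) and 5.04-fold in KpCKO (−2.33, SE 0.16, adjusted p = 6.56e-05). *Mcm6*, with 2 E2F sites in the promoter shown above, fell 4.88-fold in WT and 4.58-fold in KpCKO, and *Mcm7* fell 3.59-fold and 3.99-fold. The smallest falls in WT were those of *Mcm3* and *Mcm5*, each 2.36-fold. *Cdc6* was not well above background on 1 of the WT M1 arrays. In some alternative fits, *Cdc6* in WT and *Mcm3* and *Mcm5* in KpCKO did not pass.

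At the replication fork, 4 of 5 genes fell in both genotypes. *Prim1*, the catalytic subunit of primase, lay at 0.80 and 0.53 in WT Con, at −1.36 and −1.72 in WT M1, at 0.52 and 0.55 in KpCKO Con and at −1.17 and −1.65 in KpCKO M1. The Con arrays of both genotypes lay together and the M1 arrays lay together below them, without overlap. The fall was 4.60-fold in WT and 3.83-fold in KpCKO. *Pola1*, the catalytic subunit of DNA polymerase α, fell 4.48-fold and 3.71-fold. The helicase partners *Gins1* and *Cdc45* fell 4.44-fold and 4.30-fold in WT, although *Cdc45* was not well above background on 1 of the WT M1 arrays. The exception was *Pcna*, the sliding clamp that also serves in DNA repair. It lay at 5.64 and 5.11 in WT Con and at 6.29 and 5.72 in WT M1, so that the higher level of M1 showed within each culture and the groups did not overlap. The difference was 0.63 in WT (SE 0.17, adjusted p = 0.014) and was not found in KpCKO (0.19, adjusted p = 0.37), and quantile normalization turned its sign in WT.

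The G1/S regulators and the nucleotide enzymes did not move as 1 block. *Ccne1*, cyclin E1, lay at 0.33 and 0.10 in WT Con and at 1.33 and 1.49 in WT M1, and at 0.74 and 0.34 in KpCKO Con and 1.16 and 1.59 in KpCKO M1. The M1 arrays were the higher ones in both genotypes. The rise was 2.29-fold in WT (adjusted p = 0.00193) and 1.78-fold in KpCKO (adjusted p = 0.0128), and a second probe of the gene rose too (log2 difference 1.36 and 0.88). *Ccne2*, cyclin E2, differed by −0.34 in WT, which did not pass the test, and fell 2.17-fold in KpCKO. *E2f1*, the best known activating E2F, lay at 0.52 and 0.60 in WT Con and at −1.68 and −5.87 in WT M1, and at 0.50 and 0.73 in KpCKO Con and −0.81 and −1.29 in KpCKO M1. The 2 M1 arrays of WT differed widely, since the spot of culture 2 was not well above background. A second probe, well above background on all 12 arrays, gave a log2 difference of −2.30 in WT and −1.61 in KpCKO, both past the test over all probes, against −4.34 (SE 1.02, adjusted p = 0.00836) and −1.66 (adjusted p = 0.214) for the brighter probe.

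Among the enzymes that supply nucleotides, *Rrm1*, the large subunit of ribonucleotide reductase, fell 2.57-fold in WT and 2.42-fold in KpCKO. Its level was 1.81 and 1.75 in WT Con, 0.42 and 0.42 in WT M1, 1.85 and 1.96 in KpCKO Con and 0.66 and 0.60 in KpCKO M1. The 4 M1 arrays lay close together and below all 4 Con arrays. *Tk1*, thymidine kinase 1, fell 1.93-fold and 2.25-fold. *Tyms*, thymidylate synthase, went the other way in WT. It lay at 0.26 and 0.17 in WT Con and at 0.99 and 1.56 in WT M1, and at 0.34 and 0.64 in KpCKO Con and −0.05 and 0.56 in KpCKO M1. Only in WT did the M1 arrays lie above the Con arrays, and in KpCKO the groups overlapped. The rise in WT was 2.09-fold (log2 difference 1.06, SE 0.18, adjusted p = 0.00177), the difference in KpCKO was −0.24 (adjusted p = 0.3), and a second probe gave 1.02 and −0.20.

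Of the 4 genes of the cyclins and the kinase of G2 and mitosis, 3 fell in both genotypes. *Ccna2*, cyclin A2, lay at 0.11 and −0.47 in WT Con and at −2.45 and −2.54 in WT M1, and at 0.54 and 1.25 in KpCKO Con and −2.15 and −2.26 in KpCKO M1. All 4 M1 arrays lay near one level, below all Con arrays. The Con arrays differed by culture in both genotypes. Those of KpCKO lay above those of WT, a difference that did not pass the test. The fall was 4.96-fold in WT (adjusted p = 0.00251) and 8.59-fold in KpCKO (adjusted p = 0.000926). *Ccnb1*, cyclin B1, fell 3.12-fold and 5.28-fold, and *Cdk1*, the kinase that both cyclins activate, fell 2.40-fold and 3.73-fold. *Ccnb2*, cyclin B2, was 2.50-fold lower in WT and 2.83-fold lower in KpCKO and did not pass the test in either (adjusted p = 0.0733 and 0.0595), with KpCKO arrays at 1.54 and 2.83 in Con and 0.19 and 1.19 in M1.

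Of 5 mitotic kinases and chromosomal passenger proteins, 4 fell in WT and 5 in KpCKO. *Aurkb*, the kinase of the passenger complex, lay at −1.74 and −1.71 in WT Con, −4.77 and −4.29 in WT M1, −1.61 and −0.77 in KpCKO Con and −4.47 and −3.71 in KpCKO M1. No M1 array reached a Con array, and the array of culture 2 was the higher one in both KpCKO groups. The fall was 7.00-fold in WT and 7.47-fold in KpCKO. *Cdca8*, borealin, fell 4.22-fold and 4.86-fold, *Plk1*, polo-like kinase 1, fell 3.46-fold and 6.10-fold, and *Birc5*, survivin, fell 2.24-fold and 3.37-fold, tested without the KpCKO M2 array of culture 1, where its spot was an outlier. *Aurka*, the centrosomal Aurora kinase, fell 2.07-fold in KpCKO and differed by −0.37 in WT, which did not pass.

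In the spindle checkpoint, which holds anaphase until all chromosomes are attached, 3 of 4 members were lower and 1 higher in both genotypes. *Bub1b* (BubR1) lay at −1.83 and −1.64 in WT Con, −4.75 and −3.93 in WT M1, −1.46 and −0.41 in KpCKO Con and −4.06 and −4.07 in KpCKO M1. The groups of each genotype lay far apart, and the highest array was KpCKO Con of culture 2. The fall was 6.08-fold in WT and 8.73-fold in KpCKO. *Cdc20*, the activator of the anaphase-promoting complex, fell 3.37-fold and 5.04-fold. *Ttk* (Mps1) was not well above background on either WT M1 array, and its level there was at least 1.24-fold lower than in WT Con (adjusted p = 0.00129), a direction that the normexp correction turned.

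*Bub1*, the kinase at the top of this checkpoint, gave opposite answers from its 2 probes. The brighter probe (A_52_P259126) lay at −0.78 and −0.96 in WT Con and at 0.71 and 0.85 in WT M1, and at −0.79 and −0.998 in KpCKO Con and 0.17 and −0.19 in KpCKO M1. By it, the M1 arrays were above the Con arrays in both genotypes, with a log2 difference of 1.65 in WT (SE 0.16, adjusted p = 0.000125) and 0.88 in KpCKO (adjusted p = 0.00312). The second probe, well above background on all 12 arrays as well, fell by 2.04 on the log2 scale in WT and fell by 2.78 in KpCKO. The direction of *Bub1* therefore depends on the probe. *Cdk1*, *Kif11* and *E2f1* also had probes of unequal size or sign. A second *Kif11* probe, well above background on 5 arrays, differed by 2.98 in WT where the brighter probe gave −2.72, and a second *Cdk1* probe gave −0.08. In the other 11 of the 15 members with more than 1 probe, the probes of a gene lay on the same side in the M1 response of both genotypes, apart from *Cenpe* in WT, where they lay between −0.44 and 0.07.

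The genes of the spindle and the centromere held the largest fall in WT of any member with both arrays of each group close together. *Cenpa*, the histone variant that marks centromeres, lay at 1.38 and 1.35 in WT Con, −2.26 and −2.18 in WT M1, 1.06 and 1.60 in KpCKO Con and −1.81 and −1.59 in KpCKO M1. The cultures of a group lay close together and the groups of each genotype were far apart. The fall was 12.01-fold in WT (log2 difference −3.59, SE 0.17, adjusted p = 9.43e-06) and 8.18-fold in KpCKO (−3.03, SE 0.17, adjusted p = 2.96e-05). *Kif23*, the kinesin of the central spindle, fell 8.52-fold and 8.83-fold, and its level was near −3.5 on all 4 M1 arrays. The brighter probe of *Kif11*, the bipolar kinesin Eg5, was not well above background on either WT M1 array and was at least 3.06-fold lower there than in WT Con (adjusted p = 0.00726). *Nusap1*, *Ckap2l* and *Cenpe*, which act on spindle microtubules or kinetochores, fell in KpCKO (2.89-fold, 3.19-fold and 2.56-fold), while in WT their log2 differences of −1.03, −0.59 and −0.07 did not pass the test.

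*Mki67*, the proliferation marker Ki-67 that coats mitotic chromosomes, rose while its list fell. The level (probe A_51_P253803) was 1.53 and 1.26 in WT Con, 4.09 and 4.05 in WT M1, 1.88 and 2.70 in KpCKO Con and 3.21 and 3.66 in KpCKO M1. The M1 arrays were the highest in both genotypes, without overlap with Con, and WT M1 lay above KpCKO M1. The rise was 6.40-fold in WT (log2 difference 2.68, SE 0.31, adjusted p = 0.000327) and 2.22-fold in KpCKO (1.15, SE 0.31, adjusted p = 0.0198), and the second probe gave 2.65 and 1.10. *Top2a*, topoisomerase IIα, the other chromosome protein of the list, fell 2.70-fold and 4.18-fold. *Mki67* holds 3 CCAAT boxes and 2 CHRs in the promoter shown above.

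*Cdkn1a*, p21, showed the largest difference of all members. Its level (probe A_51_P363947) was 1.32 and 1.59 in WT Con, 6.96 and 6.96 in WT M1, and 3.42 and 3.81 in WT M2. In KpCKO it was 1.68 and 2.19 in Con, 6.45 and 6.63 in M1, and 2.999 and 3.67 in M2. The order was Con, then M2, then M1 in both genotypes and both cultures, with no overlap between the 3 conditions. The M1 rise was 45.3-fold in WT (log2 difference 5.50, SE 0.16, adjusted p = 3.42e-06) and 24.3-fold in KpCKO (4.60, SE 0.16, adjusted p = 7.5e-06). The promoter window of *Cdkn1a* held none of the 3 elements.

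**Figure D2:**
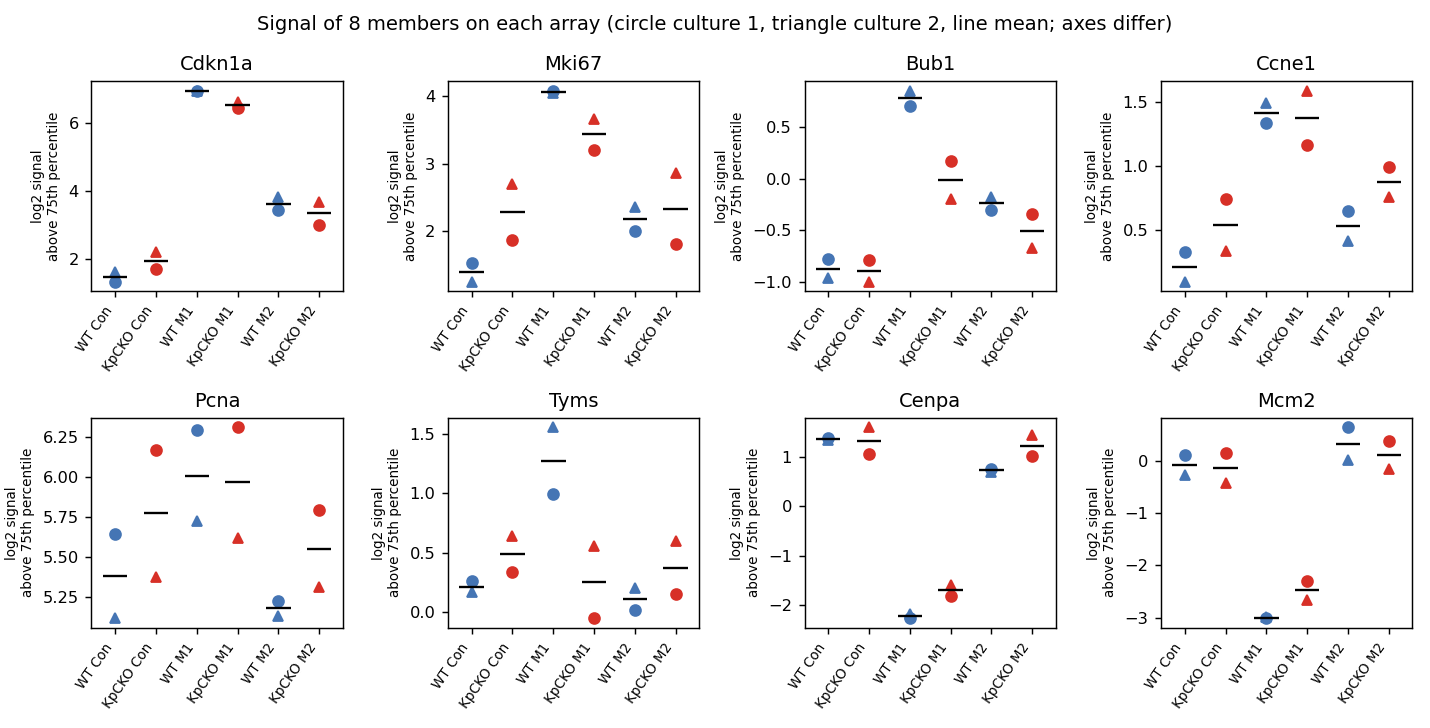
Level of 8 members on each array, as the log2 intensity minus the 75th percentile of the array, by group, with WT in blue, KpCKO in red, circles for culture 1, triangles for culture 2 and a line at the mean of 2 arrays; the vertical axes differ. *Cdkn1a*, *Mki67*, the brighter *Bub1* probe and *Ccne1* are highest in M1, and *Cenpa* and *Mcm2* are lowest there.

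Few of these genes passed the test after IL-4. In WT, *Cdkn1a* and the brighter *Bub1* probe were higher in M2 than in Con and *Cenpa* was lower, which makes 2 members higher and 1 lower of 41, against 8.65% and 8.21% of all genes. In KpCKO only *Cdkn1a* passed the test, 1 of 41 higher and 0 lower, against 5.69% and 4.55%. At an unadjusted p under 0.05, 10 members passed in WT and 3 in KpCKO, against 32.5% and 27.1% of all genes. The medians were −0.22 in WT and −0.15 in KpCKO, with −0.20 and −0.12 over the S-phase members and −0.23 and −0.20 over the mitotic members, where all genes had −0.01 and 0.01. *Cdkn1a* rose 4.47-fold in WT (adjusted p = 0.000821) and 2.64-fold in KpCKO (adjusted p = 0.0054). *Cenpa* fell 1.55-fold in WT, from 1.38 and 1.35 to 0.76 and 0.70, and *Bub1* rose 1.55-fold. *Cenpa* in KpCKO M2 was at 1.02 and 1.44, against 1.06 and 1.60 in KpCKO Con, so that these groups overlapped. The M2 arrays of WT *Cenpa* lay between those of Con and M1 and overlapped with neither. Without the culture term, 1 member passed in WT, where 959 of all genes were higher and 755 lower, against 1934 and 1835 with it. In KpCKO, 0 passed with only the 4 arrays compared, where 1 of all genes was higher and 0 lower. The M1 and M2 responses of a genotype share their Con arrays.

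By group mean, the members with the largest M1 response of each role other than *Cenpa* and *Ccna2*, which are given elsewhere, were closer in M2 to Con than to M1. *Mcm2* lay at 0.64 and 0.018 in WT M2 and at 0.38 and −0.15 in KpCKO M2. *Prim1* lay at 0.48 and 0.13 in WT M2 and at 0.22 and 0.23 in KpCKO M2, and *E2f1* at 0.39 and 0.29 in WT M2 and at 0.60 and 0.43 in KpCKO M2. *Rrm1* lay at 1.68 and 1.66 in WT M2 and at 1.68 and 2.02 in KpCKO M2. All of these lay far above the M1 arrays of the same gene and genotype. *Aurkb* lay at −2.23 and −2.31 in WT M2 and at −2.19 and −0.98 in KpCKO M2. *Bub1b* lay at −1.98 and −2.02 in WT M2 and at −1.98 and −0.64 in KpCKO M2. *Mki67*, which is higher in M1, lay at 2.003 and 2.36 in WT M2 and at 1.81 and 2.87 in KpCKO M2. These 3 mitotic genes had their highest M2 array in culture 2 of KpCKO. Of the members that passed between genotypes in M1, *Tyms* lay at 0.015 and 0.20 in WT M2 and 0.15 and 0.60 in KpCKO M2, and *Cdt1* at 4.004 and 3.597 in WT M2 and 4.39 and 3.55 in KpCKO M2. *Mcm5* lay at 1.21 and 0.87 in WT M2 and 1.22 and 1.14 in KpCKO M2, *Cdc45* at −3.51 and −4.17 and at −3.23 and −3.34, and the brighter *Bub1* probe at −0.30 and −0.17 and at −0.34 and −0.67. *Mcm5* and *Cdc45* were higher and *Bub1* lower in KpCKO within each culture, and *Tyms* and *Cdt1* overlapped or went both ways.

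The genotypes differed in few members within a condition. In Con, 0 of 41 members passed the test between KpCKO and WT against 2.22% of all genes, and in M2 0 passed, against 1.93%. At an unadjusted p under 0.05, 11 members passed in Con and 12 in M2, against 14.1% and 14.3% of all genes. In M1, 2 members were higher in KpCKO and 3 lower, against 7.43% and 8.59% of all genes. By quantile normalization, the share of higher genes among all calls of this comparison moved from 46.4% to 60.0%. The higher ones were *Mcm5* and *Cdc45*. *Mcm5*, a subunit of the helicase, lay at −0.24 and −0.51 in WT M1 and at 0.21 and 0.36 in KpCKO M1 (log2 difference 0.66, SE 0.16, adjusted p = 0.0403). Both KpCKO arrays were above both WT arrays. *Cdc45* lay at −5.34 and −5.64 in WT M1, the first of them not well above background, and at −4.80 and −4.14 in KpCKO M1 (1.02, SE 0.27, adjusted p = 0.0485). The lower ones were *Tyms*, *Cdt1* and the brighter *Bub1* probe.

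*Tyms* differed by −1.02 (SE 0.18, adjusted p = 0.0151), with a like difference of −1.046 in culture 1 and −1.004 in culture 2, and a second probe gave −0.98. *Cdt1*, the licensing factor, lay at 3.20 and 2.81 in WT M1 and at 2.80 and 1.95 in KpCKO M1 (−0.63, SE 0.16, adjusted p = 0.0409), where the lower array of WT and the higher of KpCKO lay close to each other. *Bub1* differed by −0.79 (SE 0.16, adjusted p = 0.0218) and its second probe by −0.12. These 5 calls were not steady, and the calls over all genes fell along with them. Without the culture term, 1 member passed, where 669 of all genes were higher and 522 lower, against 1660 and 1921 with it. By normexp correction 1 passed as well, where 479 of all genes were higher and 436 lower.

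Over the 3 conditions together, 9 of the 41 members passed between the genotypes. The mean of the 3 differences passed the test in 7 members that were higher and 2 that were lower, against 8.62% and 8.55% of all genes. The test counts the 3 arrays of a mouse as separate, so its p-values do not measure the spread between the mice of a genotype. Of the 21 mitotic members, 5 were higher and 1 lower with a median of 0.59, and of the 19 S-phase members 2 were higher and 1 lower with a median of 0.08, where all genes had −0.02. At an unadjusted p under 0.05, 15 of the 21 mitotic members passed, against 33.3% of all genes. The mitotic members were *Nusap1* (2.17-fold, adjusted p = 0.0175), *Plk1* (1.61-fold, adjusted p = 0.0384), *Cdca8* (1.46-fold, adjusted p = 0.035), *Ccnb1* (1.67-fold, adjusted p = 0.0497) and *Ttk* (adjusted p = 0.0197). No fold is given for *Ttk*, which was well above background on 0 of 2 WT M1 arrays and 1 of 2 KpCKO M1 arrays and for which the normexp correction turned the sign. The brighter *Bub1* probe was lower (log2 difference −0.36), while the second gave 0.50, so that the direction turned with the probe. The S-phase members were *Cdc45* (1.61-fold) and *Gins1* (1.25-fold), with *Mcm3* lower (1.18-fold).

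*Plk1*, *Cdca8* and *Ccnb1* had their highest Con and M2 levels in culture 2 of KpCKO. *Plk1* lay at 0.74 and 0.39 in WT Con and 1.22 and 1.81 in KpCKO Con, at −1.30 and −1.14 in WT M1 and −1.04 and −1.15 in KpCKO M1, and at 0.46 and 0.22 in WT M2 and 0.88 and 1.73 in KpCKO M2. *Cdca8* lay at 1.84 and 1.91 in WT Con and 2.14 and 2.92 in KpCKO Con, at −0.28 and −0.12 in WT M1 and 0.18 and 0.31 in KpCKO M1, and at 1.89 and 1.95 in WT M2 and 2.04 and 2.85 in KpCKO M2. *Ccnb1* lay at −1.82 and −2.15 in WT Con and −1.32 and −0.69 in KpCKO Con, at −3.74 and −3.51 in WT M1 and −3.42 and −3.39 in KpCKO M1, and at −1.82 and −2.32 in WT M2 and −1.56 and −0.57 in KpCKO M2. Both KpCKO arrays were above both WT arrays in each condition in these 3 genes, apart from *Plk1* in M1, where the groups overlapped. *Ttk* lay at −5.12 and −5.84 in WT Con and −4.78 and −4.89 in KpCKO Con, and at −6.04 and −6.56 in WT M2 and −5.24 and −4.84 in KpCKO M2. *Gins1* lay at −0.051 and −0.41 in WT Con and 0.17 and −0.080 in KpCKO Con, at −2.48 and −2.28 in WT M1 and −2.05 and −2.01 in KpCKO M1, and at −0.58 and −0.81 in WT M2 and −0.28 and −0.41 in KpCKO M2. *Ttk* and *Gins1* were higher in KpCKO within each culture and condition shown, and in *Gins1* Con the lower KpCKO array lay just below the higher WT array. *Mcm3* lay at 0.43 and −0.033 in WT Con and 0.17 and −0.46 in KpCKO Con, at −0.72 and −1.36 in WT M1 and −0.71 and −1.34 in KpCKO M1, and at 0.55 and −0.032 in WT M2 and 0.17 and −0.43 in KpCKO M2. It was lower in KpCKO in each culture of Con and M2 and close to WT in M1, with genotypes that overlapped and culture 2 below culture 1 throughout.

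The size of the genotype difference was not the same in the 2 cultures. The median of the mitotic members was 0.35 in culture 1 and 1.27 in culture 2 in Con, 0.29 and 0.04 in M1, and 0.26 and 1.33 in M2. The difference was larger in culture 2 in 20 of 21 mitotic members in Con and in 19 in M2. Such counts by culture were made within the lists only, not over all genes. In the S-phase members it was larger in culture 2 in 13 of 19 in Con and 15 of 19 in M2, and the medians were −0.01 and 0.21 in Con and 0.03 and 0.21 in M2. *Nusap1* lay at −2.14 and −2.39 in WT Con and at −1.43 and −0.50 in KpCKO Con, and at −2.31 and −2.73 in WT M2 and −1.84 and −0.69 in KpCKO M2. Both KpCKO arrays lay above both WT arrays in each condition, and the one of culture 2 lay far above. *Ccna2* was lower in WT Con (0.11 and −0.47) than in KpCKO Con (0.54 and 1.25), with −0.14 and −0.83 in WT M2 and 0.13 and 1.13 in KpCKO M2, again with the highest arrays in culture 2 of KpCKO. *Ccnb2* reached 2.83 and 2.91 there in Con and M2, where the other 6 arrays of these conditions lay between 0.68 and 1.54. The RNA on those arrays came from 1 mouse, so the mice cannot be told apart from the culture.

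Over the 3 conditions, the median genotype difference of the mitotic members was 0.31 in culture 1 and 0.89 in culture 2. That of the S-phase members was 0.04 and 0.11. A fit without either KpCKO mouse leaves 1 array in each KpCKO group, so its calls are not counted here. With the 3 arrays of each mouse averaged, which leaves 4 values, 0 of 22084 genes passed (4779 unadjusted), members included, so that the members cannot be judged by it. Without the culture term, 2 members passed over the 3 conditions (9 with it). All genes had 1031 higher and 831 lower there (1926 and 1910 with it), so the calls over all genes fell as well. A fit with an array left out leaves 1 array in a group, so its calls are not counted either. With arrays left out, the S-phase median minus the mitotic median ran from −0.78 to −0.27 over the 3 conditions. Macrophage markers moved with genotype as well. Of the 9 with a probe, 6 were lower in KpCKO over the 3 conditions and 0 higher, against 8.55% and 8.62% of all genes. Among the lower ones was *Lyz2*, the locus that carries the *LysM*-Cre, and the 9 markers had a median of −0.59. Their summed level was between 9.31 and 10.33 on the WT arrays and between 8.96 and 9.63 on the KpCKO arrays. The summed level of B cell markers was 0.46 and 0.41 in Con and M2 of the KpCKO mouse of culture 2 and between −0.49 and −0.13 on the other 6 arrays of these conditions, and that of stem and early progenitor markers was 1.42 and 2.69 against −0.37 to 2.40. That of mast cell and basophil markers was −2.59 and −3.07 against −4.37 to −3.59, and that of stromal markers was 4.86 and 4.53 against 5.14 to 5.79. The part of these markers in the mitotic values was not tested.

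**Figure D3:**
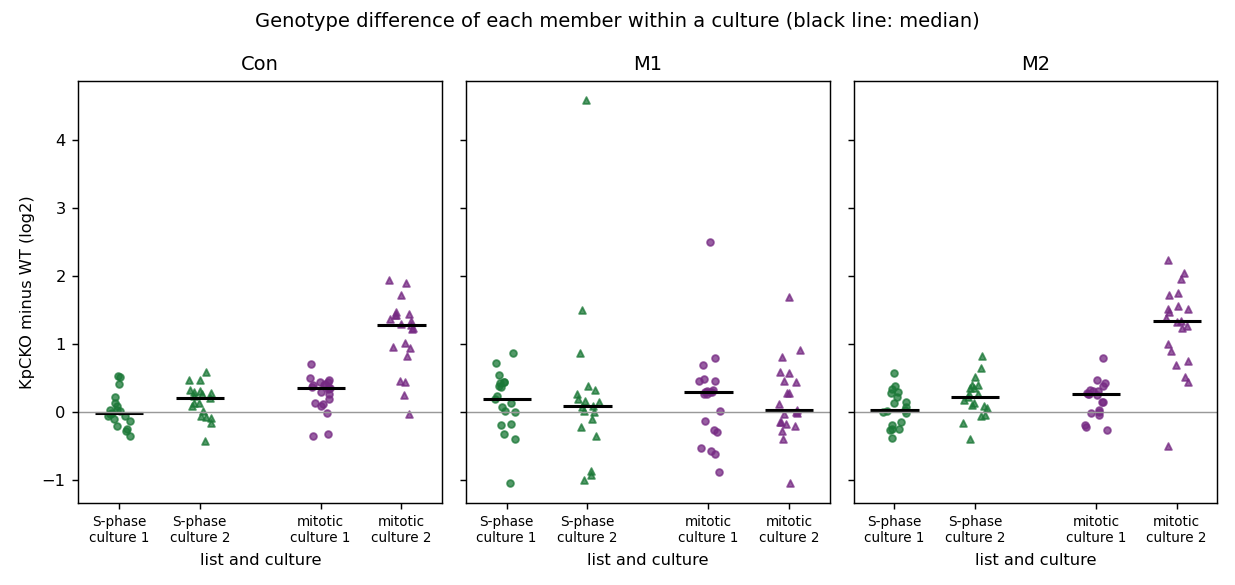
KpCKO minus WT (log2) of each S-phase (green) and mitotic (purple) member within culture 1 (circles) and culture 2 (triangles), in Con, M1 and M2, with a black line at the median of the list. The mitotic medians are 1.27 and 1.33 in culture 2 of Con and M2, against 0.35 and 0.26 in culture 1, and lie near 0 in culture 2 of M1.

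The M1 responses of the genotypes were compared by the difference of the differences. Of the 41 members, 0 passed that test against 0.0716% of all genes, and 10 passed at an unadjusted p under 0.05, against 16.4%. The median of this difference was 0.09 over the S-phase members and −0.59 over the mitotic members, which was −0.14 in culture 1 and −1.01 in culture 2, and the difference was below 0 in both cultures in 13 of the 21 mitotic members and above 0 in both in 1. The 13 include *Mki67* and the brighter *Bub1* probe, which rose in both genotypes, and the same count was not made over all genes. Among the genes that rose in WT M1, *Mki67* differed by −1.53 (SE 0.44, adjusted p = 0.198), *Tyms* by −1.30 (SE 0.25, adjusted p = 0.119), *Cdkn1a* by −0.90 (SE 0.23, adjusted p = 0.171) and the brighter *Bub1* probe by −0.77 (SE 0.22, adjusted p = 0.195), with culture 1 and culture 2 on the same side. *Ccne1* and *Pcna*, the other members that rose in WT M1, had smaller differences of the same sign. These genes were grouped by their rise in WT M1, which this difference subtracts. Their shared sign is therefore partly set by that choice and is no result of its own. *Cenpe*, which did not pass in WT and fell in KpCKO, differed by −1.29. In M2, 0 passed as well, against 0.00895% of all genes, 1 passed unadjusted, against 2.02%, and the median was 0.03. *E2f1*, whose WT M1 spot of culture 2 was not well above background, did not pass in either. 

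**Figure D4:**
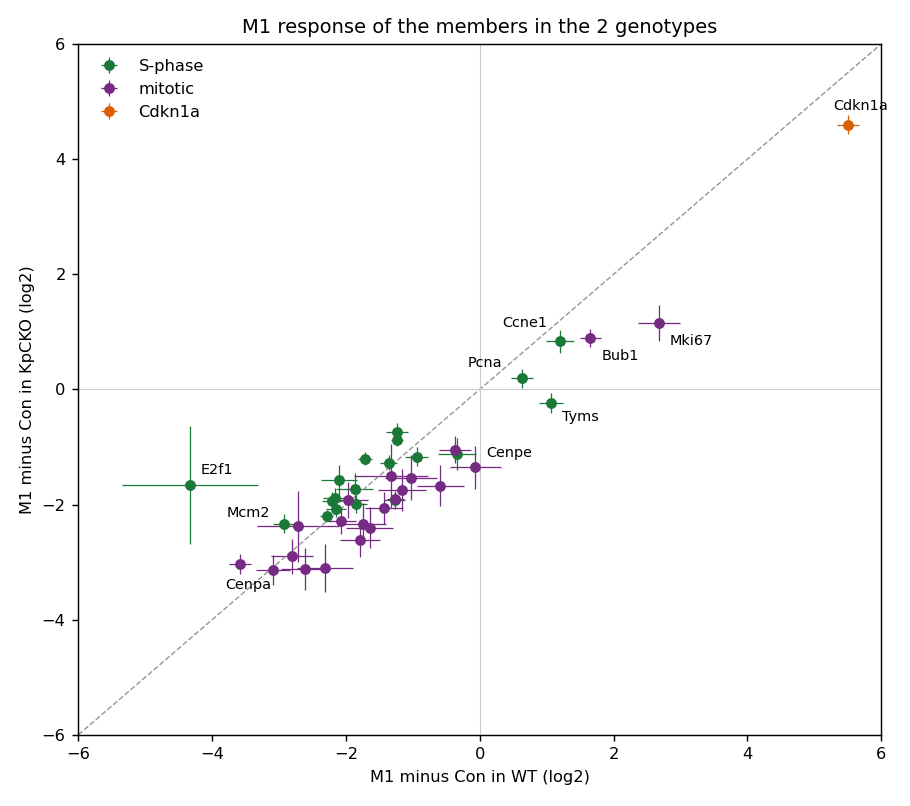
M1 minus Con (log2) of each member in KpCKO (vertical axis) against WT (horizontal axis), with S-phase members in green, mitotic members in purple and *Cdkn1a* in orange; bars are the standard errors of the fit and the dashed line marks equal responses. *Cdkn1a* lies at 5.50 and 4.60, 5 further members lie right of 0, and most mitotic members lie below the line.

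Further cell cycle genes were taken from lists drawn up by function, again with earlier results of these data known. Over all genes, 28.7% were lower and 34.5% higher in the M1 response of WT, and 25.4% and 24.8% in that of KpCKO. Of 43 other S-phase genes, 26 were lower and 6 higher in the WT M1 response with a median of −1.005, and 30 and 3 in KpCKO with −1.12. The largest falls in WT were those of *Pole2* (8.43-fold), a subunit of DNA polymerase ε, *Gmnn* (7.20-fold), geminin, the inhibitor of Cdt1, and *Exo1* (6.28-fold), a DNA exonuclease. The largest rises were those of *Timeless* (6.56-fold), a factor that protects forks, *Pola2* (2.77-fold), of polymerase α, and *Rfc3* (2.10-fold), of the clamp loader. Of 58 other mitotic genes with a probe, 42 were lower and 7 higher in WT with a median of −1.72, and 47 and 2 in KpCKO with −2.04. *Cdc25b*, a phosphatase that activates Cdk1, fell 35.6-fold in WT and 28.7-fold in KpCKO, and *Ncapg2*, a condensin subunit, fell 9.01-fold and *Kif20b*, a kinesin, 7.82-fold in WT. *Trip13*, a checkpoint ATPase, rose 5.63-fold in WT and 5.40-fold in KpCKO, and *Tpx2*, a spindle factor, and *Pttg1*, securin, rose 5.63-fold and 5.14-fold in WT.

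The other mitotic genes were compared between genotypes as well. Over the 3 conditions, 15 of 58 were higher in KpCKO and 2 lower, against 8.62% and 8.55% of all genes. The median was 0.49, with 0.24 in culture 1 and 0.77 in culture 2. In Con, 0 passed, against 2.22% of all genes (23 unadjusted, against 14.1%), and the medians of the cultures were 0.27 and 1.10. Over the same 3 conditions, the other S-phase genes had 6 higher and 2 lower of 43 with a median of 0.19. Since these genes were measured on the same arrays of the same 4 mice, they are no independent evidence.

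The regulators upstream showed no common direction under M1. Of 24 genes of the G1, RB, E2F and DREAM list, 7 were higher and 10 lower in WT, against 34.5% and 28.7% of all genes. *Ccnd2*, cyclin D2, rose 32.7-fold in WT and 7.02-fold in KpCKO, and *Rbl1*, the pocket protein p107, rose 13.6-fold and 6.96-fold. *E2f2*, an activating E2F, fell 15.1-fold and 9.55-fold, *Tfdp2*, an E2F partner, fell 4.57-fold and 3.41-fold, and *Myc* fell 4.23-fold in WT. In M2, *Myc* rose 4.97-fold in WT and 4.76-fold in KpCKO. *E2f8*, a repressing E2F, rose 2.95-fold in WT M1. Between genotypes in M1, KpCKO had less *Ccnd2* (3.54-fold, adjusted p = 0.0276, lower in both cultures) and less *E2f8* (2.21-fold). *E2f7*, *E2f2* and *E2f6* were 2.38-fold, 2.45-fold and 2.28-fold higher in KpCKO.

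Inhibitors of the cyclin-dependent kinases other than p21 differed by gene. In WT M1, *Cdkn2b* (p15) rose 3.17-fold, *Cdkn2d* (p19) rose 1.47-fold and *Cdkn2c* (p18) fell 5.35-fold, and in KpCKO *Cdkn2b* rose 5.39-fold and *Cdkn2c* fell 5.00-fold. Over the 3 conditions, *Cdkn1c* (p57) was 9.60-fold higher in KpCKO than in WT (log2 difference 3.26, 4.18 in culture 1 and 2.34 in culture 2, adjusted p = 0.0019), *Cdkn2b* and *Cdkn2a* were higher by 1.13 and 0.67, and *Cdkn1b* (p27) differed by −0.68. Of 16 genes of p53 and its targets, a list to which *Cdkn1a* would belong, 5 were higher and 3 lower in WT M1 with a median of 0.08, against 34.5% and 28.7% of all genes. *Mdm2* rose 3.52-fold, *Btg2* 3.38-fold and *Plk3* 3.04-fold, and *Trp53inp1* fell 5.88-fold, *Zmat3* 2.78-fold and *Phlda3* 2.13-fold. In WT M2, *Plk3* rose 9.62-fold, *Aen* 2.11-fold and *Ccng1* 1.35-fold, and 0 genes of the list fell. Over all genes, 8.65% were higher and 8.21% lower there.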

How the data were processed

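RNA of BMDMs was measured on 12 one-colour Agilent arrays (Cy3), in 6 groups of 2 cultures. Scans were read by the authors in Feature Extraction 10.7.3.1 (Agilent; design annotated on mm9), and the authors deposited background-subtracted intensities, not scaled between arrays, with the median spot and background intensities and flags. They also deposited a matrix of log2 values, which was used as an alternative and matches those log2 intensities after scaling to each array's 75th percentile and centring by probe. Outlier spots were left out and no spot was saturated. Log2 intensities were set relative to the 75th percentile of the array, and of 41174 probes, 26682 were matched by accession and 5 by gene name to 18217 symbols. The brightest probe stood for a gene.

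The 22367 genes for which some group had both arrays well above background were fitted with limma 3.58.1 in R 4.3.3, with the 6 groups and the culture in 1 model (5 residual and 1.92 prior degrees of freedom). No depth exists for arrays, and the 2 arrays per group limit the precision: an exact test of 2 against 2 cannot go below p = 0.333, two-sided. The p-values measure the spread between arrays of 4 mice, since each mouse gave 3. Where neither array of a group was well above background, a bound is given: the brighter group's mean against the dim spots, each raised to the array's lowest well-above-background signal if below it. Cultures paired the samples by the design, and the deviations of same-culture arrays from their group means correlated at 0.162 to 0.597 (median 0.342) over 15 pairs of groups. Replicate arrays correlated at 0.985 to 0.993 across genes.

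The members and all lists were chosen with earlier results of these data known, so no test was made over a list, and lists are described by counts and medians. Values by array are given for *Cdkn1a*, for the member of each of 9 role groups with the largest difference in the WT M1 response, and for members that passed between genotypes. Members that passed against the median of their list are named. Of the other lists, at most 3 rises and 3 falls of a comparison are named. This was not done for every list and comparison, so a gene left unnamed there may have passed. Per-array values of *Ccnb2* and *Nusap1* were added after they were seen. Alternatives were quantile and normexp (offset 50) processing, the authors' matrix, other filters on dim probes, the mean of a gene's probes, other models, the methods' t-test, and each array left out. After the data were seen, mouse as a block, means per mouse, probes in place of genes and models without either KpCKO mouse were added. Promoter sequences came from RefSeq (GRCm38.p6). Tables and plots used Python 3.11.15, pandas 2.3.3 and matplotlib 3.10.9.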

Additional observations from a re-analysis of the deposited data

How the results depend on the processing

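In the M1 response, 35 members were called in WT and 37 in KpCKO. The fit has the culture as replicate block. With no replicate block, 1 member passed in the WT M2 response (3 with it), where 959 of all genes were higher and 755 lower (1934 and 1835 with it). Between genotypes in M1, 1 passed (5 with it), where all genes had 669 and 522 (1660 and 1921 with it). Over the 3 conditions, 2 passed (9 with it), where all genes had 1031 and 831 (1926 and 1910 with it). Of 90 called gene results, 74 kept their call. The methods' t-test with adjusted p gave 9, 0, 0, 0 and 0 members in WT M1, KpCKO M1, WT M2, KpCKO M2 and between genotypes in M1, where 1553 higher and 1381 lower, 0, 2, 0 and 0 of all genes passed, and with unadjusted p 6 in WT M2, 3 in KpCKO M2, 1 between genotypes in Con and 1 in M2. With only the 4 arrays compared, 5 passed in WT M2, 0 in KpCKO M2 and 0 between genotypes in M1 (all genes: 2064 higher and 2324 lower, 1 and 0). Without a filter on dim probes, 1 passed in WT M2, 2 between genotypes in M1 and 3 over the 3 conditions. All genes had 1240 higher and 1134 lower, 1054 and 1569, and 1376 and 1539 there. With normexp correction, 1 passed between genotypes in M1 (all genes: 479 higher and 436 lower) and 1 over the 3 conditions (842 and 933). Trended and robust variance gave 15 over the 3 conditions (2262 and 2309), and means of 3 arrays per mouse gave 0 (0 and 0). With the mean of a gene's probes, 1 passed between genotypes in M2 (258 and 136). With arrays left out, counts were 1 in WT M2, 0 to 1 in KpCKO M2, 0 in Con and in M2 between genotypes, 0 to 3 in M1, 0 to 10 over the 3 conditions, and 0 to 1 and 0 for the difference of the M1 and M2 responses.

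The S-phase median minus the mitotic median was −0.07 in WT M1, and −0.25 by quantile normalization, −0.14 by normexp, −0.020 in the authors' matrix, 0.17 with genes above background on all 12 arrays and 0.036 without *Ccna2*, *Cdk1*, *Top2a* and *Mki67*. It was 0.48 in KpCKO M1 and 0.90 with genes above background on all 12 arrays, 0.03 in WT M2 and −0.083 by normexp, and −0.11 between genotypes in M1 and 0.029 by normexp. With arrays left out it ran from −0.31 to 0.37 in WT M1, 0.38 to 0.99 in KpCKO M1, −0.27 to 0.38 in WT M2, −0.24 to 0.40 in KpCKO M2, −0.97 to −0.33, −0.25 to −0.064 (−0.011 without the KpCKO mouse of culture 2) and −0.92 to −0.26 between genotypes in Con, M1 and M2, −0.78 to −0.27 over the 3 conditions, and 0.35 to 0.96 and −0.37 to 0.36 for the difference of the M1 and M2 responses. Signs turned with the mean of a gene's probes for *Bub1* (−0.19 in WT M1, −0.092 in WT M2, −0.95 in KpCKO M1, 0.071 over the 3 conditions) and *Kif11* (0.13 in WT M1), by quantile normalization for *Pcna* (−0.17 in WT M1), and by normexp for *Ttk* (0.24 in WT M1, −0.10 over the 3 conditions). The mean over probes mixes the opposed probes of *Bub1* and *Kif11*, and *Ttk* was near background. For the other changes the cause was not tested.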
